A study of Drosophila melanogaster with 6 samples.

Results

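The heat shock genes described here are 10 genes for molecular chaperones and their regulator, namely Hsp22, Hsp23, Hsp26, Hsp27, Hsp67Bc, Hsp68, Hsp83, Hsc70-4, DnaJ-1 and Hsf. They were chosen by name, and every transcript that the deposited FPKM matrix lists under these names was taken, which gave 25 of 36294 transcripts and 10 of 17136 genes. The brains came from Drosophila melanogaster larvae of the third instar, from the wild-type strain Canton S (CS), collected 6 days after egg-laying. Control larvae grew on cornmeal food with water added when it was melted. Alcohol larvae grew on the same food with alcohol added to 5%, and a dilute alcohol solution was pipetted onto that food every day, whereas control food received no daily liquid. The effect of alcohol and that of the added liquid cannot be told apart. Larvae of both groups were frozen before dissection, and each group gave 3 pools of about 30 brains, whose poly-A RNA was sequenced. No source used here says whether the pools of a group came from separate cultures, so the p-values measure the spread between pools.

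Chaperones bind unfolded proteins and keep them from aggregating. Small heat shock proteins hold unfolded clients, the Hsp70 family refolds them with energy from ATP and with the help of DnaJ (Hsp40) partners, and Hsp90, which is Hsp83 in flies, completes the folding of signalling proteins and hormone receptors. Under heat or other protein damage, the transcription factor Hsf forms trimers and switches on the inducible members of these families. In Drosophila, several small heat shock genes are also switched on during normal development by the steroid hormone ecdysone, at the end of larval life among other times, without heat. Hsp83 and Hsc70-4 are highly expressed in unstressed cells, whereas the Hsp70 genes are nearly silent in them.

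All 10 genes were detected in all 6 pools, at widely different levels, given as FPKM (the number of fragments per length of transcript and per mapped fragments of the pool) summed over the transcripts of a gene. In the control pools Hsp23 was the most abundant, at 3287 ± 230 FPKM, followed by Hsc70-4 at 1127 ± 39.2, Hsp27 at 1028 ± 39.5 and Hsp83 at 794 ± 71.7 (SD, n = 3 pools). Hsp67Bc had 172 ± 24.4 FPKM, Hsp26 140 ± 18.1, DnaJ-1 62.4 ± 10.5 and Hsf 40.0 ± 2.90 (SD, n = 3 pools). Hsp68 had 11.3 ± 2.98 FPKM and Hsp22, the least abundant, 6.26 ± 2.52 (SD, n = 3 pools). The order was the same in the alcohol pools. Neighbours in this order whose ranges over the pools overlapped were Hsp67Bc and Hsp26 in the control pools, Hsc70-4 and Hsp27 in the alcohol pools, and Hsp68 and Hsp22 in both groups. All other neighbours were apart in both groups.

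**Figure D1:**
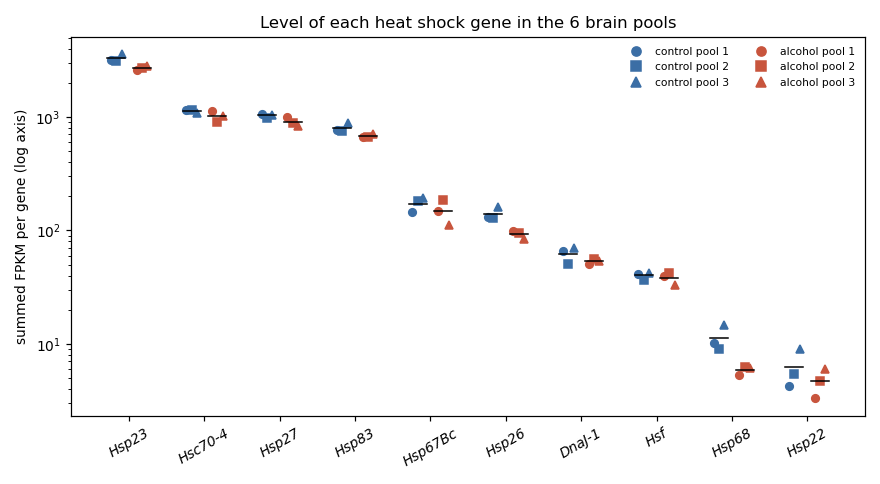
The plot gives the summed FPKM of each heat shock gene (log axis) in each pool, with control pools in blue, alcohol pools in red and the group means as black lines. The genes are ordered by their control mean, from Hsp23 at 3287 FPKM to Hsp22 at 6.26 FPKM, and the alcohol pools lie below all control pools for Hsp23, Hsp26, Hsp68 and Hsp83.

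Control pool 3 stood apart most in the inducible Hsp70 genes, which are the genes for the main heat-induced chaperone of the fly. The summed FPKM of the 6 genes was 7.77, 7.07 and 124 in control pools 1 to 3 against 7.77, 6.20 and 7.67 in alcohol pools 1 to 3. Hsp70Ab had 3.44, 3.09 and 32.2 FPKM in control pools 1 to 3 against 2.90, 2.04 and 3.65 in alcohol pools 1 to 3. Hsp70Aa had 31.1 FPKM in control pool 3, 0.0018 in control pool 1, and is listed at 0 in the other 4 pools. The copies are nearly identical, so the division of reads between them is uncertain. When all tested genes were ranked by how far control pool 3 exceeded the next highest pool on the log2(FPKM + 1) scale, the first 5 were Hsp70Aa, Hsp70Bb, Hsp70Bbb, Hsp70Bc and Hsp70Ab, by 5.00 to 2.84, and Hsp70Ba was number 7. Of the 10 heat shock genes, Hsp22 came at number 13, with a gap of 0.53, Hsp68 at number 17, with 0.48, and Hsp26 at number 38, with 0.31. This ranking was made after the pool was seen to differ. Fold changes that moved by over 1.5 times without this pool are therefore given with and without it.

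**Figure D2:**
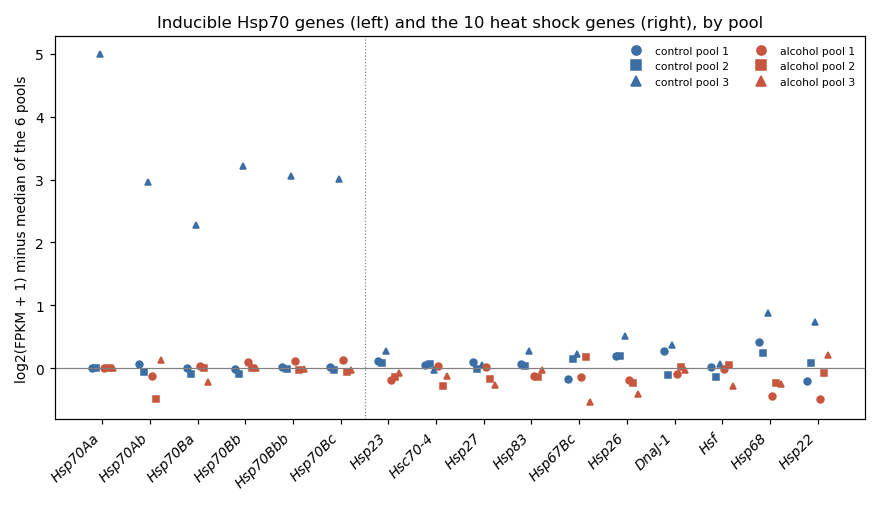
The plot gives log2(FPKM + 1) of each pool minus the median of the 6 pools, for the 6 inducible Hsp70 genes left of the dotted line and the 10 heat shock genes right of it, with control pools in blue and alcohol pools in red. The blue triangle, control pool 3, lies far above the other pools for all 6 Hsp70 genes and is the highest pool for 8 of the 10 heat shock genes, by smaller amounts.

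The mean of every one of the 10 genes was lower in the alcohol pools than in the control pools, and none of the genes was differentially expressed by the criteria used here. The groups were compared on log2(FPKM + 1) with limma, in a model of treatment and the library-size covariate of the Ballgown package, fitted to the 8247 genes whose FPKM varied between pools (a variance above 1). A gene was called where its change exceeded 2-fold and its unadjusted p-value was under 0.05. This was met by 0 of the 10 heat shock genes and by 1.36% of all genes tested. An unadjusted p-value under 0.05 with a lower level in alcohol pools was reached by 3 of the 10, Hsp68, Hsp26 and Hsp23, and by 1.12% of all genes. After Benjamini-Hochberg adjustment over all genes, limma gave 0 genes under 0.05, beside 282 at an unadjusted p-value under 0.05, and the adjusted p-value of each heat shock gene was 0.999. The fitted change lay below 0 for 10 of the 10, as it did for 57.0% of all genes, and its median was -0.29 for the heat shock genes and -0.033 for all genes (log2). The 3 alcohol pools all lay below the 3 control pools for 4 of the 10, Hsp23, Hsp26, Hsp68 and Hsp83, and for 4.44% of all genes. In bulk RNA, fewer cells of a type and less RNA per cell cannot be told apart.

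Some of these counts depended on control pool 3. It was the highest of the 6 pools for 8 of the 10 heat shock genes, all but Hsp27 and Hsc70-4. Of all genes tested, control pool 1 was the highest for 24.6% and control pool 3 for 22.1%. Without control pool 3, 0 of the 10 had a limma p-value under 0.05 and the fitted change was below 0 for 8 of the 10. The median was then -0.17 for the heat shock genes and 0.052 for all genes. The alcohol pools lay below control pools 1 and 2 for 5 of the 10, Hsp23, Hsp26, Hsp68, Hsp83 and Hsc70-4, and for 10.7% of all genes tested without that pool.

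**Figure D3:**
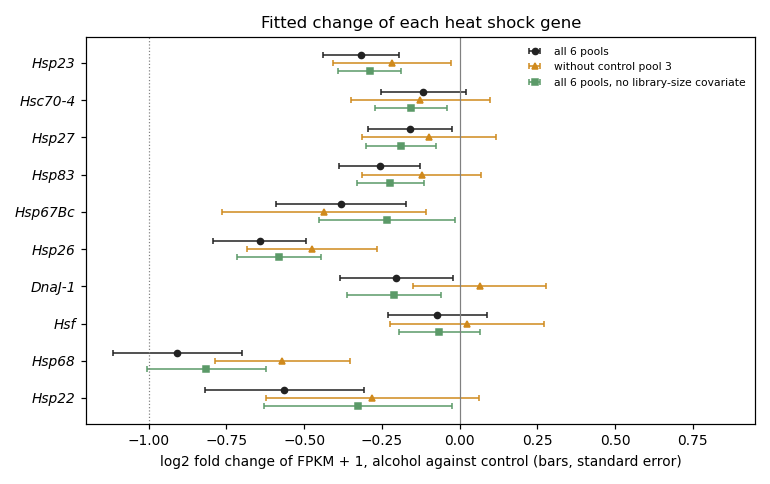
The plot gives the log2 fold change of FPKM + 1, alcohol against control, for each heat shock gene, with the standard error as bars and a dotted line at a 2-fold decrease. Black circles are the fit to all 6 pools, orange triangles the fit without control pool 3 and green squares the fit without the library-size covariate. All black circles lie left of 0, Hsp68 is farthest at -0.91, and DnaJ-1 and Hsf cross 0 without control pool 3.

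The regulator Hsf, on the minus strand of chromosome 2R (dm6, 18130303 to 18134634), had the smallest difference between the groups. Its level was 41.1, 36.8 and 42.3 FPKM in control pools 1 to 3 against 40.0, 42.1 and 33.0 in alcohol pools 1 to 3. The groups overlapped throughout. Its log2 fold change of -0.072 was smaller than the standard error of 0.16, and changed sign without control pool 3, at 0.025.

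Hsf is listed with 4 transcripts that encode 691 to 733 amino acids and differ in 2 optional coding segments, 1 exon of 54 bases (18131136 to 18131189), and 1 stretch of 72 bases (18131388 to 18131459) that is spliced out of the others. Hsf-RA carries neither and made up 62.8% of the FPKM of the gene on average. Hsf-RB carries the longer segment, Hsf-RC the shorter, and Hsf-RD both. Hsf-RD had 5.68, 3.98 and 1.47 FPKM in control pools 1 to 3 against 7.67, 4.29 and 3.05 in alcohol pools 1 to 3, which overlap. It was called as upregulated, at 1.18 on the log2 scale (standard error 0.346, limma adjusted p-value = 0.891). The plain difference between the group means on that scale was 0.39, and the remainder came with the library-size covariate, so that without the covariate Hsf-RD was not called, at 0.39 with a standard error of 0.471. Hsf-RC had 0.772, 7.08 and 6.14 FPKM in control pools 1 to 3 against 0.702, 5.99 and 5.31 in alcohol pools 1 to 3, so that the pools numbered 1 of both groups were low and the rest lay together. At -1.53 (standard error 0.588) Hsf-RC just missed the p-value threshold. It was at -0.15 without the covariate, at 0.066 with quantile normalization and no covariate, and at -2.44 without control pool 3.

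Summed by segment, the transcripts with the 54-base exon took 15.7, 30.1 and 18.0% of the FPKM of Hsf in control pools 1 to 3 against 20.9, 24.4 and 25.3% in alcohol pools 1 to 3. Those with the 72-base stretch took 31.1, 24.1 and 19.4% in control pools 1 to 3 against 36.3, 23.4 and 21.1% in alcohol pools 1 to 3. The groups overlapped for both. In the test of transcript usage, which asks whether the transcripts of a gene changed by different amounts, Hsf had a limma diffSplice adjusted p-value of 0.27. None of the 6 heat shock genes with at least 2 tested transcripts passed an adjusted p-value under 0.05, while 0.606% of all 3630 genes tested did. At an unadjusted p-value under 0.05 the counts were 1 of the 6 and 357 of the 3630. Hsf-RA, Hsf-RB and Hsf-RD have no base that the others lack and Hsf-RC has 13, in its 5' UTR, so their division rests mostly on reads across splice sites.

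**Figure D4:**
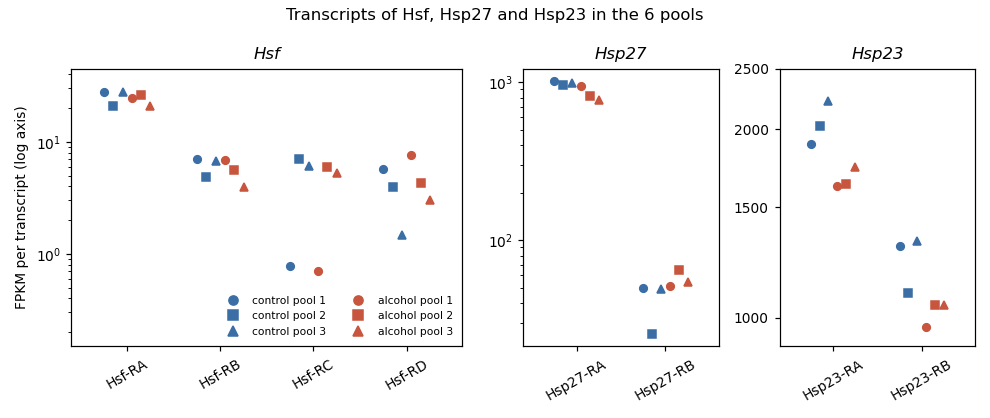
The plot gives the FPKM (log axis) of each listed transcript of Hsf, Hsp27 and Hsp23 in each pool, with control pools in blue and alcohol pools in red. Hsf-RC is below 1 FPKM in the pools numbered 1 of both groups, Hsp27-RA is lower and Hsp27-RB higher in the 3 alcohol pools, and both transcripts of Hsp23 are lower in the alcohol pools.

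Of the small heat shock genes, 5 are among the 10, and all lie in the gene cluster at cytological band 67B, within 14184 bases of chromosome 3L (dm6, 9371511 to 9385694). Hsp26, a cytosolic small heat shock protein on the minus strand (9376418 to 9377427), showed the clearest separation of these. It had 130, 129 and 161 FPKM in control pools 1 to 3 against 98.8, 95.6 and 84.5 in alcohol pools 1 to 3. The alcohol mean was 33.6% below the control mean and the groups did not overlap (two-sided exact permutation test, p = 0.1, which is the least that 3 pools against 3 can give). The log2 fold change was -0.64 (standard error 0.149, limma adjusted p-value = 0.999). Without control pool 3 it was -0.47, with a standard error of 0.21. Hsp26-RA, which held 99.2% of the FPKM, carried this difference, and Hsp26-RB, with 52 more bases in its 5' UTR, was at 1.76 FPKM or less in every pool and did not vary enough to be tested.

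Hsp23, on the plus strand (9381882 to 9382765), is a small heat shock protein known for its ecdysone-dependent expression. It had 3196, 3116 and 3549 FPKM in control pools 1 to 3 against 2591, 2685 and 2788 in alcohol pools 1 to 3. Every alcohol pool was below every control pool, by 18.2% on average (two-sided exact permutation test, p = 0.1). The fitted log2 change was -0.32 with a standard error of 0.122, and without control pool 3 it was -0.22 with a standard error of 0.19. Its transcripts Hsp23-RA and Hsp23-RB differ by 35 bases at the 3' end, held 62.1 and 37.9% of the FPKM, and were both lower in the alcohol pools without overlap. Hsp23-RA had a log2 fold change of -0.40 (standard error 0.214) and Hsp23-RB of -0.29 (standard error 0.24, and -0.11 without control pool 3), and neither was called.

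Hsp27, on the plus strand (9384063 to 9385694), encodes a small heat shock protein of the nucleus. Its sum was 1065, 986 and 1033 FPKM in control pools 1 to 3 against 1001, 886 and 827 in alcohol pools 1 to 3, so that alcohol pool 1 lay within the control range. The fitted change of this sum was -0.16 on the log2 scale, with a standard error of 0.135, and -0.097 without control pool 3. Its 2 transcripts went in opposite directions. Hsp27-RA had 1015, 961 and 984 FPKM in control pools 1 to 3 against 950, 821 and 773 in alcohol pools 1 to 3, all lower. Hsp27-RB, which extends the 3' UTR by 412 bases, had 50.1, 25.7 and 49.2 FPKM in control pools 1 to 3 against 51.1, 64.6 and 54.5 in alcohol pools 1 to 3, all higher, although the closest pools were at 50.1 and 51.1. It took 4.70, 2.60 and 4.76% of the gene in control pools 1 to 3 against 5.10, 7.30 and 6.59% in alcohol pools 1 to 3. Neither transcript was called, at -0.14 (standard error 0.229) for Hsp27-RA and 0.58 (standard error 0.434) for Hsp27-RB on the log2 scale. Hsp27-RB was at 1.25 without control pool 3 and at 0.17 without control pool 2, and Hsp27-RA at -0.02 without control pool 3. The test of transcript usage did not pass its threshold for Hsp27 (limma diffSplice adjusted p-value = 0.81).

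Hsp67Bc, on the minus strand at the edge of the cluster (9371511 to 9372497), encodes a small heat shock protein that works in autophagy with the cochaperone Starvin. It had 145, 181 and 191 FPKM in control pools 1 to 3 against 148, 185 and 112 in alcohol pools 1 to 3. The groups overlapped, and alcohol pool 3 alone was below all control pools. Hsp67Bc was at -0.38 on the log2 scale, with a standard error of 0.209, at -0.19 without alcohol pool 3 and at -0.23 without the covariate. Hsp22, on the plus strand (9372931 to 9374964), encodes a small heat shock protein of mitochondria. It had 4.26, 5.44 and 9.09 FPKM in control pools 1 to 3 against 3.30, 4.74 and 6.01 in alcohol pools 1 to 3, which overlap, and its log2 fold change was -0.56 (standard error 0.256). Without control pool 3 it was -0.28 (standard error 0.342), without the covariate -0.33 (standard error 0.301), and with quantile normalization and no covariate -0.022. Hsp22-RA spans the same bases as CG4456-RB, a transcript of the neighbouring gene once named Hsp67Bb, and their reads cannot be told apart. Hsp22-RB, which starts downstream and held 70.5% of the FPKM, had 2.71, 3.67 and 6.49 FPKM in control pools 1 to 3 against 2.14, 2.89 and 5.69 in alcohol pools 1 to 3. It has no base that Hsp22-RA lacks and lies within the span of CG4456-RB. The division of reads between these transcripts, and with it the sums of Hsp22 and CG4456, is therefore uncertain.

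Not every gene of the cluster had a lower mean in the alcohol pools. Hsp67Ba, a related small heat shock gene between Hsp26 and Hsp23, had 232, 243 and 321 FPKM in control pools 1 to 3 against 272, 300.0 and 227 in alcohol pools 1 to 3, with means of 266 ± 48.6 and 266 ± 36.6 (SD, n = 3 pools per group) and a fitted log2 change of -0.11 (standard error 0.173) that changed sign without control pool 3, at 0.068, and without the covariate, at 0.01. The alcohol means of the 5 others were lower by 12.0% for Hsp27, 13.9% for Hsp67Bc, 18.2% for Hsp23, 25.2% for Hsp22 and 33.6% for Hsp26. Whether these differ from Hsp67Ba was not tested.

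**Figure D5:**
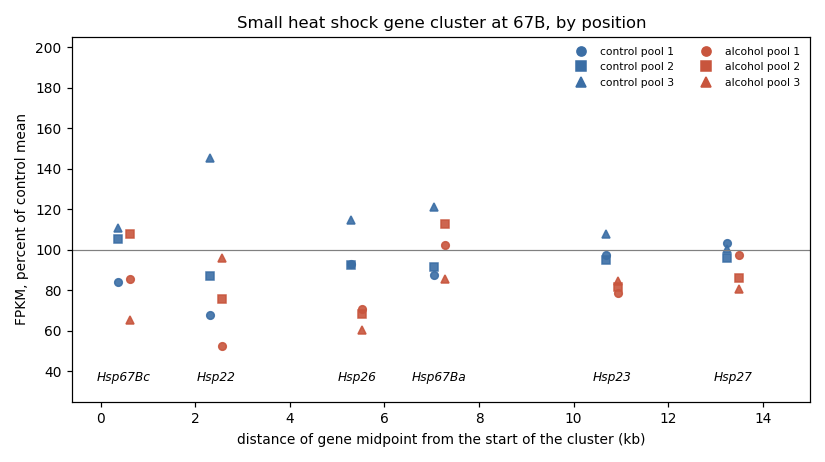
The plot gives the FPKM of each pool as a percentage of the control mean of the gene, for 6 small heat shock genes of the cluster, against the distance of the gene from the start of the cluster in kb. Control pools are blue and alcohol pools red. The groups are apart for Hsp26 and Hsp23, and they overlap for Hsp67Ba and the others.

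Among the Hsp70 family, Hsp68 is a stress-inducible gene and Hsc70-4 is the main constitutive cytosolic one. Hsp68, on the minus strand of chromosome 3R (24055080 to 24057310), had the largest fitted change of the 10 genes. It had 10.3, 8.97 and 14.7 FPKM in control pools 1 to 3 against 5.27, 6.22 and 6.15 in alcohol pools 1 to 3. The alcohol pools lay close together and below every control pool, and their mean was 48.0% lower (two-sided exact permutation test, p = 0.1). The log2 fold change of the gene was -0.91 (standard error 0.207, limma adjusted p-value = 0.999), short of the 2-fold threshold. Without control pool 3 it was -0.57 (standard error 0.217), and without control pool 2 it was -1.14 (standard error 0.153) and was called. Its only listed transcript, Hsp68-RA, has the same FPKM, but in the fit to transcripts, which has its own covariate, it was at -1.01 (standard error 0.291, limma adjusted p-value = 0.88) and it was called as downregulated. This call was lost in 9 of 15 alternatives, among them those without the covariate (-0.81) and without control pool 3 (-0.60). The gene shares 13 bases at its end with genes on the other strand.

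Hsc70-4, on the plus strand of 3R (15242687 to 15246614), had 1144, 1156 and 1083 FPKM in control pools 1 to 3 against 1126, 910 and 1010 in alcohol pools 1 to 3. The ranges overlapped, since alcohol pool 1 lay among the control pools. On the log2 scale the fitted change was -0.12, within its standard error of 0.137. It is listed with 7 transcripts that share the whole coding region and differ at the 5' end, of which Hsc70-4-RA held 98.9% of the FPKM, and the highest value of the other 6 in any pool was 7.79 FPKM.

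Hsp83, the fly Hsp90, on the plus strand of 3L (3192969 to 3197059), had 761, 744 and 876 FPKM in control pools 1 to 3 against 667, 659 and 710 in alcohol pools 1 to 3. The groups did not overlap (two-sided exact permutation test, p = 0.1), with a mean 14.5% lower in the alcohol pools. Hsp83 was at -0.26 on the log2 scale (standard error 0.13), and at -0.12 without control pool 3 (standard error 0.19). Hsp83-RA held 96.4% of the FPKM and was lower in all 3 alcohol pools. Hsp83-RB, with another 247 bases in the 5' UTR, had 30.6, 18.7 and 27.0 FPKM in control pools 1 to 3 against 34.9, 24.8 and 19.4 in alcohol pools 1 to 3, and overlapped.

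DnaJ-1, a Hsp40 partner of the Hsp70 proteins on the minus strand of 3L (5750029 to 5752189), had 66.0, 50.5 and 70.5 FPKM in control pools 1 to 3 against 50.8, 55.4 and 53.6 in alcohol pools 1 to 3. Control pool 2 was the lowest of the 6 pools, so the groups overlapped. The fitted log2 change of -0.20 had a standard error of 0.182, and was 0.065 without control pool 3. Control pool 3 differed in DnaJ-1-RB, the unspliced form of the transcript, which had 9.69, 6.97 and 16.5 FPKM in control pools 1 to 3 against 7.89, 7.55 and 6.81 in alcohol pools 1 to 3. It made up 23.3% of the gene in control pool 3 and 12.7 to 15.5% in the other 5 pools.

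Over all 25 transcripts, 20 varied enough to be tested and 2 of them were called, Hsf-RD up and Hsp68-RA down, against 3.85% of the 14645 transcripts tested. Without control pool 3 neither was called, and Hsf-RC was the only heat shock transcript called, against 824 of all 14494 transcripts tested. All alcohol pools lay below all control pools for 6 of the 20, against 4.90% of all tested transcripts, and above them for 1, Hsp27-RB, against 2.82%. The transcripts left out were Hsp22-RA, Hsp26-RB, Hsc70-4-RC, Hsc70-4-RE and Hsc70-4-RG, all at 2.60 FPKM or less in every pool.

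The other chaperone genes were described by 6 lists with 46 genes, of which 40 varied enough to be tested. By limma, 0 of the 40 had a p-value under 0.05 and 0 were called, the fitted change was below 0 for 31, and the median was -0.076. Of all 8247 genes tested, 282 had such a p-value, 1.36% were called and 57.0% were below 0, with a median of -0.033. The count of 31 and the median of the 40 rested on control pool 3. Without it the change was below 0 for 14 of the 34 genes that still varied enough, with a median of 0.032. For all genes it was then below 0 for 42.1%, with a median of 0.052. The 6 inducible Hsp70 genes were high in control pool 3 alone and varied enough only through it. They were past both thresholds without control pool 2. Hsc70-2, Hsp60B, Hsp60C and CG9920, named for this reason, varied enough only through control pool 1. They had 3.69, 4.32, 6.72 and 19.8 FPKM there and at most 0.33 in any other pool. All of these but CG9920 were fitted below 0, so the count of 31 rests partly on this filter. Without control pool 1, 29 of 36 genes were below 0, against 52.4% of all genes. Among the other small heat shock genes, CG14207 (HspB8) had 88.7 ± 4.92 and 88.0 ± 8.09 FPKM in control and alcohol pools (SD, n = 3 pools per group). Of the other Hsp70, Hsp90 and Hsp60 genes, Hsc70-3, the chaperone BiP of the endoplasmic reticulum, had 319 ± 19.6 and 295 ± 40.5 FPKM, and CG11267, the mitochondrial Hsp10, had 153 ± 9.42 and 143 ± 16.8 (SD, n = 3 pools per group). Of the other DnaJ genes, Droj2 had 203 ± 20.4 and 188 ± 3.63 FPKM, and Csp, the cysteine string protein of synaptic vesicles, 105 ± 16.4 and 102 ± 13.6 (SD, n = 3 pools per group). Of the cochaperones of Hsp90, p23 had 510 ± 26.0 and 488 ± 10.0 FPKM, and Stip1, which links Hsp70 to Hsp90, had 145, 138 and 160 FPKM in control pools 1 to 3 against 122, 129 and 132 in alcohol pools 1 to 3, which do not overlap (log2 fold change -0.24, standard error 0.125, and -0.13 without control pool 3). The heat-inducible noncoding RNA lncRNA:Hsromega had 167, 137 and 147 FPKM in control pools 1 to 3 against 108, 131 and 136 in alcohol pools 1 to 3, which do not overlap either. With unc-45, named here after its values were seen, these made 3 of the 40 genes whose alcohol pools all lay below the control pools. The share over all genes tested was 4.44%. CG4456 had 11.4 ± 4.79 and 8.34 ± 3.37 (SD, n = 3 pools per group).

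Lists of marker genes gave the state of the tissue beside these values, and all genes of the lists were detected in at least 1 pool. The summed FPKM of the 6 neuron markers was 317 to 515 in the control pools and 318 to 536 in the alcohol pools, and that of the 6 glial markers 180 to 239 and 227 to 235. The 6 neuroblast markers summed to 102 to 115 and 89.8 to 110 FPKM. For each of these lists control pool 3 was the highest control pool. Markers of other tissues were present as well. The 9 salivary gland genes summed to 14140 to 55966 FPKM in the control pools, lowest in control pool 3, and 29985 to 45633 in the alcohol pools. The 6 fat body genes summed to 2123 to 6448 and 669 to 3947, and the 8 muscle genes to 60.1 to 524 and 104 to 413. The 8 cuticle genes summed to 166 to 612 and 217 to 399, and the 6 hemocyte genes to 65.8 to 86.6 and 67.4 to 77.4. Control pool 3 was the lowest control pool for the fat body, cuticle and hemocyte genes as well, but not for the muscle genes. The 14 genes of the early ecdysone response summed to 1174, 1259 and 907 FPKM in control pools 1 to 3 against 886, 800.0 and 879 in alcohol pools 1 to 3, which do not overlap, and control pool 3 was here the lowest control pool. The closest of these pools were at 907 and 886. A sum follows its most abundant genes, and the single genes of these lists are not given here. The part of these tissues and of the ecdysone response in the lower levels of the heat shock genes was not tested.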

How the data were processed

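Poly-A RNA of 6 larval brain pools was measured, with groups and replicate numbers from the sample labels. Per the labels and the study's methods, the authors trimmed reads with Trimmomatic 0.39, aligned them to dm6 with HISAT2 2.2.0 and quantified transcripts with StringTie 2.1.4. They deposited FPKM and read coverage per transcript, with no further normalization. The ratio of the deposited coverage to FPKM gave 2719 to 4244 aligned megabases per pool. Without read counts, the spread between pools is the error given. The authors' deposited table of fold changes (ratio), p-values and q-values was not used.

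Transcripts were named by position in the BDGP6.54 annotation, and FPKM was summed per gene. Features with a variance above 1 across pools were tested on log2(FPKM + 1), which understates the change of low genes, with limma 3.58.1 in R 4.3.3 (treatment and the Ballgown library-size covariate, Benjamini-Hochberg over all features). Usage was tested with diffSplice. Single values were tested with exact two-sided permutation tests over the 20 assignments of the pools. These are given for heat shock genes whose groups did not overlap, where p is always 0.1 and adds nothing to that separation. The other heat shock genes had p from 0.2 (Hsp27 and Hsc70-4) to 0.6 (Hsf) in this permutation test. Plots used Python 3.11.15, pandas 2.3.3 and matplotlib 3.10.9. The fits were tested on simulated data.

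Alternatives were no covariate, a replicate block (with or without the covariate), a pseudocount of 0.1, no filter or a minimum mean of 1 FPKM in place of the variance filter, rescaling to a total of 1000000 (TPM), the ordinary F-test, quantile normalization (which also dropped the covariate) and leaving out each pool. All 10 genes and their transcripts are named. Of the related lists, the genes called or else the 2 with the highest mean FPKM per list are named. Other genes of these lists are named only where the text says why. The 10 genes and the lists were chosen with earlier results of these data known.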

Additional observations from a re-analysis of the deposited data

How the results depend on the processing

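Leaving out each pool in turn gave 0 to 1 heat shock genes called (Hsp68, without control pool 2), 0 to 3 at a limma p-value under 0.05 (0 without control pool 3), 4 to 6 without overlap (6 without control pool 2 or alcohol pool 1) and 1 to 3 transcripts called. Over all features it gave 79 to 167 genes called and 153 to 352 genes at a limma p-value under 0.05. It also gave 605 to 824 transcripts called, while 564 transcripts were called with all pools. Smaller groups overlap less easily. The share of all genes without overlap, lower in alcohol, was 4.44% with all pools and 10.7% without control pool 3. It was not counted without the other pools. With a pseudocount of 0.1, 1 heat shock gene was called, Hsp68, just past 2-fold, and 125 of all 8247 genes tested were called. After rescaling to TPM, 0 of the 10 genes had a limma p-value under 0.05, and 203 of all 10224 genes tested did. The number of heat shock transcripts called was 0 without the covariate, without the variance filter, with TPM, and with quantile normalization and no covariate. Over all transcripts the numbers called were 348, 431, 842 and 352, in that order. Signs turned for DnaJ-1 (-0.40 to 0.065 when single pools were left out, turned only without control pool 3), Hsf (0.056 with TPM, and -0.16 to 0.039 when single pools were left out, turned without control pool 3, at 0.025, and alcohol pool 3) and Hsf-RC (0.066 with quantile normalization and no covariate). These are 3 of 19 fold changes, those of the 10 genes and of 9 transcripts, and the other 16 kept their sign under all 15 alternatives. The ordinary F-test reuses the fitted changes, so no sign could turn there. Dropping the covariate gave the same changes with and without the replicate block. Of the 11 other tested transcripts, whose fold changes are not given here, 9 turned in at least 1 alternative. The cause was not tested. Of the related chaperone genes, 0 had a limma p-value under 0.05 with all pools, 6 (the inducible Hsp70 genes) without control pool 2, 1 without alcohol pool 2 and 1 without the variance filter. Over all genes tested the counts were 282 of 8247, 197 of 8194, 344 of 8191 and 650 of 15913, in that order. No usage call was made for any heat shock gene in any alternative run.

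Across all tested transcripts, same-numbered pools did not deviate together (correlations of -0.0096, -0.18 and -0.24), so the numbers are not taken as pairs. Some values did go with the number. The salivary gland, muscle and cuticle sums were highest, and Hsf-RC lowest, in the pools numbered 1 of both groups. Aligned megabases were 3257, 4244 and 3937 in control pools 1 to 3 against 2719, 4028 and 3557 in alcohol pools 1 to 3. The other marker sums were highest in differently numbered pools. Whether the numbers mark a batch was not tested. With the replicate block, 0 heat shock genes were called and 2 had a limma p-value under 0.05, with or without the covariate. Over all genes tested, 146 were called with the covariate and 68 without it, and 198 and 139 had such a p-value. Such a p-value was reached by 6 related chaperone genes with the covariate (the inducible Hsp70 genes) and 0 without it. Among heat shock transcripts, 1 was called with the covariate and 0 without it, against 674 and 323 over all transcripts tested. FPKM without counts leaves the spread of 3 pools as the only measure of precision.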

Other observations

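The genes outside all lists whose log2(FPKM + 1) followed the mean of the 5 small heat shock genes most closely over the 6 pools were CG7839, CG6758 and Smyd4-4, among 9840 genes with a mean of at least 1 FPKM. CG7839 had 16.6, 17.7 and 19.1 FPKM in control pools 1 to 3 against 15.3, 16.3 and 15.2 in alcohol pools 1 to 3. CG6758 had 12.5, 13.0 and 14.0 FPKM in control pools 1 to 3 against 11.6, 12.1 and 11.3 in alcohol pools 1 to 3. Smyd4-4 had 28.5, 29.3 and 33.3 FPKM in control pools 1 to 3 against 26.2, 27.6 and 25.1 in alcohol pools 1 to 3. Each was highest in control pool 3 and lower in every alcohol pool than in every control pool. This follows from how they were picked, since the small heat shock mean has the same order of pools. Pearson's r with the small heat shock mean was 0.991, 0.99 and 0.99, as a description over 6 pools that share their libraries, and 38 of the 9840 genes had r above 0.95.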
